A study of Mus musculus with 3 samples.

Results

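The genes described here are 41 genes of DNA repair and of the DNA damage checkpoint, taken from a list of symbols whose rule uses no value of these arrays. Of the 41, 34 were measured by 44 probe sets that the platform annotation assigns to 1 gene each. Another 6 (Fanca, Msh3, Ddb2, Ogg1, Lig4 and Atr) were not listed in that annotation, and Fancc shares its probe set with another gene, so these 7 were not analysed here. The series as a whole measured 8220 genes in this way.

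The cells were the LNC line of malignant B-1 cells, which comes from the lymph node of a New Zealand Black (NZB) mouse. RNA was taken at 24 h from cells given an IL-10 antisense oligonucleotide at 20 µM, from cells given a scrambled oligonucleotide at 20 µM as the control for unspecific effects of oligonucleotides, and from untreated cells. Each group was 1 array of the A chip of the first Affymetrix Murine Genome U74 set, all 3 of the same cell line, and the sources used here do not say whether an array held 1 culture or a pool. A single array per group leaves no replicates, so differences are described without a test or a p-value.

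Cells meet DNA damage with several pathways. Homologous recombination copies an intact sister strand to mend a double-strand break, and end joining ligates the broken ends directly. Mismatch repair corrects errors of replication, nucleotide excision repair removes bulky lesions as a short strand, and base excision repair replaces single damaged bases. The checkpoint kinases Atm and Atr sense damage and act through Chek2 and Chek1 to halt the cell cycle. B lymphocytes also use end joining and mismatch repair to rearrange and mutate their immunoglobulin genes.

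Values are probe set intensities on a linear scale, brought to the same trimmed mean on each array. Intensities at or below a floor of 595.9, which is 2 robust standard deviations of the values below 0, were set to the floor before a log2 difference was taken. The share of probe sets above the floor was 42.0% to 42.6% on the arrays. Scatter was gauged from the control arrays: for each gene, the 300 probe sets closest to it in level gave the 95th percentile of the absolute scrambled minus untreated log2 difference, called the control scatter below. It was 1.19 at an intensity of 1000, 0.85 at 2000, 0.58 at 4000 and 0.33 at 16000. Any effect of the scrambled oligonucleotide itself is part of it. It shrinks next to the floor, where values are held equal, and has no meaning there.

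Il10, the targeted gene, read 13946 on the antisense-labelled array, 5616 with the scrambled oligonucleotide and 5164 without treatment. Its RNA was thus higher where the label says it was targeted, and the array is called antisense-labelled throughout. Each direction below rests on that label. Of 10 B cell markers, 9 were measured and 7 of these exceeded the floor on each array, among them Cd79a and Ms4a1. Cd5, which marks B-1 cells, and Cd22 were at or below the floor on all of them. Of 6 measured T cell markers 1 was above the floor, Cd4, and the CD3 chains Cd3e, Cd3d and Cd3g were not. Of 8 myeloid markers Cd14, Csf3r and Elane were above the floor on the 3 arrays, and the defining Itgam, Lyz2 and Adgre1 were on none. Csf3r, a growth factor receptor gene of granulocytes, read 1068, 2966 and 1843 on the antisense-labelled, scrambled and untreated arrays, and its difference of -1.47 from scrambled passed the control scatter of 0.87. The summed intensity of the measured B cell markers was 210805 on the antisense-labelled array, 272920 with the scrambled oligonucleotide and 241310 without treatment. In the same order the sums were 3549.5, 6096 and 5955 for the myeloid list and 1816, 2886 and 1507 for the T cell list. The ratio of the 3-prime to the 5-prime probe set of 18S ribosomal RNA was 8.13, 4.48 and 1.72 on the same arrays. The same ratio was 0.956, 0.992 and 0.920 for actin and 0.931, 0.997 and 1.01 for Gapdh. The part of the marker lists and of the 18S ratio in the differences below was not tested.

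Of the 34 measured genes, 22 were above the floor on the 3 arrays, 8 on 1 or 2 of them and 4 on none. The 30 above the floor on at least 1 array are counted below, and a gene that passed through a single array had to differ. The values of the genes that carry the results come after their promoter sequences. The promoter windows run from 250 bases before to 50 bases after the annotated start and were taken from RefSeq, build GRCm38.p6, written 5′ to 3′ on the gene's strand. The first shown is that of Rad1, the only gene at least 2-fold apart in any comparison with the scaling and floor given above. Next are the checkpoint kinases that lay on opposite sides of the controls (Chek1 and Chek2). Last are the breast cancer genes of homologous recombination (Brca1 and Brca2), which did so too. Capitals mark the words searched on both strands, namely the E2F words TTTCGCGC, TTTGGCGC, TTTCCCGC and TTTGCCGC and the word CCAAT. A word on the opposite strand appears as its reverse complement. None of the words searched overlapped in these windows.
Rad1, chr15:10485768-10486067, plus strand: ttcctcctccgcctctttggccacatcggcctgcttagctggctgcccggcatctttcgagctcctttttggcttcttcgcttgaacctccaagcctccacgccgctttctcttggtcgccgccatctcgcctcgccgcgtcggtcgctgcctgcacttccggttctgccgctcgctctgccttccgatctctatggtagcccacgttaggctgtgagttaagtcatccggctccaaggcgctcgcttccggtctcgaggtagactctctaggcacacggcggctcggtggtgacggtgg
Chek1, chr9:36726609-36726908, minus strand: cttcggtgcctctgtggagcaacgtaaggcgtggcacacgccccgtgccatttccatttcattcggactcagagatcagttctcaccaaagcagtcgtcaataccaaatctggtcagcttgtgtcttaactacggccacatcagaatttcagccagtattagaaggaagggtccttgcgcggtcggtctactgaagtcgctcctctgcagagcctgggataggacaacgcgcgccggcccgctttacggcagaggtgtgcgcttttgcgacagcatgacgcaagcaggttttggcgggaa
Chek2, chr5:110839733-110840032, plus strand: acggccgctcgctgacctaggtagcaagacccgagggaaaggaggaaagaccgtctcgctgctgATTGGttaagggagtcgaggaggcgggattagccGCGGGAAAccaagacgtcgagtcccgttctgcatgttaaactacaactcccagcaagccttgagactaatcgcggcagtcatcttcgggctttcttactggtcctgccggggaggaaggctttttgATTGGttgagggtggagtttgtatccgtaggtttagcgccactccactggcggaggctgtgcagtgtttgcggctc
Brca1, chr11:101551906-101552205, minus strand: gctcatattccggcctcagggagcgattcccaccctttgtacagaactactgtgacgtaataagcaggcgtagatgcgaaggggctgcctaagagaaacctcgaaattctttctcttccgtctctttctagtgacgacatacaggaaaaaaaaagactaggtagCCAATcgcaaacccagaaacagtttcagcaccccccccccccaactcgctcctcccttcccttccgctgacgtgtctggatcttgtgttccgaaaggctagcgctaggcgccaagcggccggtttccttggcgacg
Brca2, chr5:150522371-150522670, plus strand: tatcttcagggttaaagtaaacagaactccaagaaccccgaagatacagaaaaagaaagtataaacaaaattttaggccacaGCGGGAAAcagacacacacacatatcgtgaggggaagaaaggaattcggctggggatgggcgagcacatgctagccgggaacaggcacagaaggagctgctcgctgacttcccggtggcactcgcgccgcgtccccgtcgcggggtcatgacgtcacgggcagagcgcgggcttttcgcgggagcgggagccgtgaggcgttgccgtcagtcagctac

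A second annotated start of Rad1 lies nearby, and its window also held none of the words. The table of promoters had a window for 28 of the 34 measured genes, and Rad50, Nbn, Wrn, Xpc, Ercc3 and Prkdc were without one. An E2F word lay in the window of 6 of the 28, or 21.4%, which were Brca2, Bard1, Fancg, Msh6, Xrcc6 and Chek2. The same words lay in 4.25% of the array's genes that have a window and in 2.26% of all windows in the table. The E2F transcription factors drive genes of S phase and bind words of this kind, but a match of letters is not a site. Of the 6 genes, Bard1 and Msh6 were below the floor and Fancg at it. The other 3 differed by -0.51 and -0.24 (Brca2), -0.43 and -0.32 (Xrcc6) and 0.29 and 0.66 (Chek2) against untreated and scrambled, and with spike-in scaling all 3 were above both controls. CCAAT, the word of the factor NF-Y, lay in 16 of the 28 windows, 57.1%, beside 42.5% of the array's genes.

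On the 3 arrays the repair and checkpoint genes lay close together. The median log2 difference of the 30 genes was -0.04 against untreated and -0.01 against scrambled, and between the scrambled and untreated arrays it was -0.05. Over all 34, the genes at the floor included, the medians were -0.0039, 0.00 and 0.00. The median over the 4643 genes of the series above the floor on any array was 0.00 in each comparison. The median size of the difference, without its sign, was 0.28 against untreated and 0.28 against scrambled for the 30 genes. For all genes it was 0.24 and 0.27. Between the control arrays these sizes were 0.19 for the repair genes and 0.19 for all genes.

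Once values were held at the floor, a 2-fold difference was found for 1 of the 30 genes, Rad1, against untreated. There 4.78% of all genes were 2-fold apart. Against scrambled none of the 30 was 2-fold apart, beside 5.94% of all genes, though 3 genes of the list were with the floor at 1 robust standard deviation. Between the scrambled and untreated arrays none was, beside 3.06%. The control scatter at a gene's level was passed, with values held at the floor, by Rad1 against untreated and by no gene of the 30 against scrambled. Of all genes, 8.7% and 10.7% passed it. The comparisons against untreated and against scrambled share the antisense-labelled array. At 1.5-fold, 1 gene exceeded both controls on the antisense-labelled array, Brca1, beside 5.17% of all genes, and 1 was lower, Wrn, beside 3.98%. Both of these were below the floor on 1 array. By any amount, 10 of the 30 exceeded both controls and 13 lay below both, where 37.4% and 31.6% of all genes were. This split takes the arrays to have equal overall levels, and it became 28 higher and 1 lower when the arrays were scaled to their bacterial spike-in controls, which moved the median of all genes by 0.58 against untreated and 0.47 against scrambled. Relative to those shifted medians the repair genes differed by -0.003 and -0.03.

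**Figure D1:**
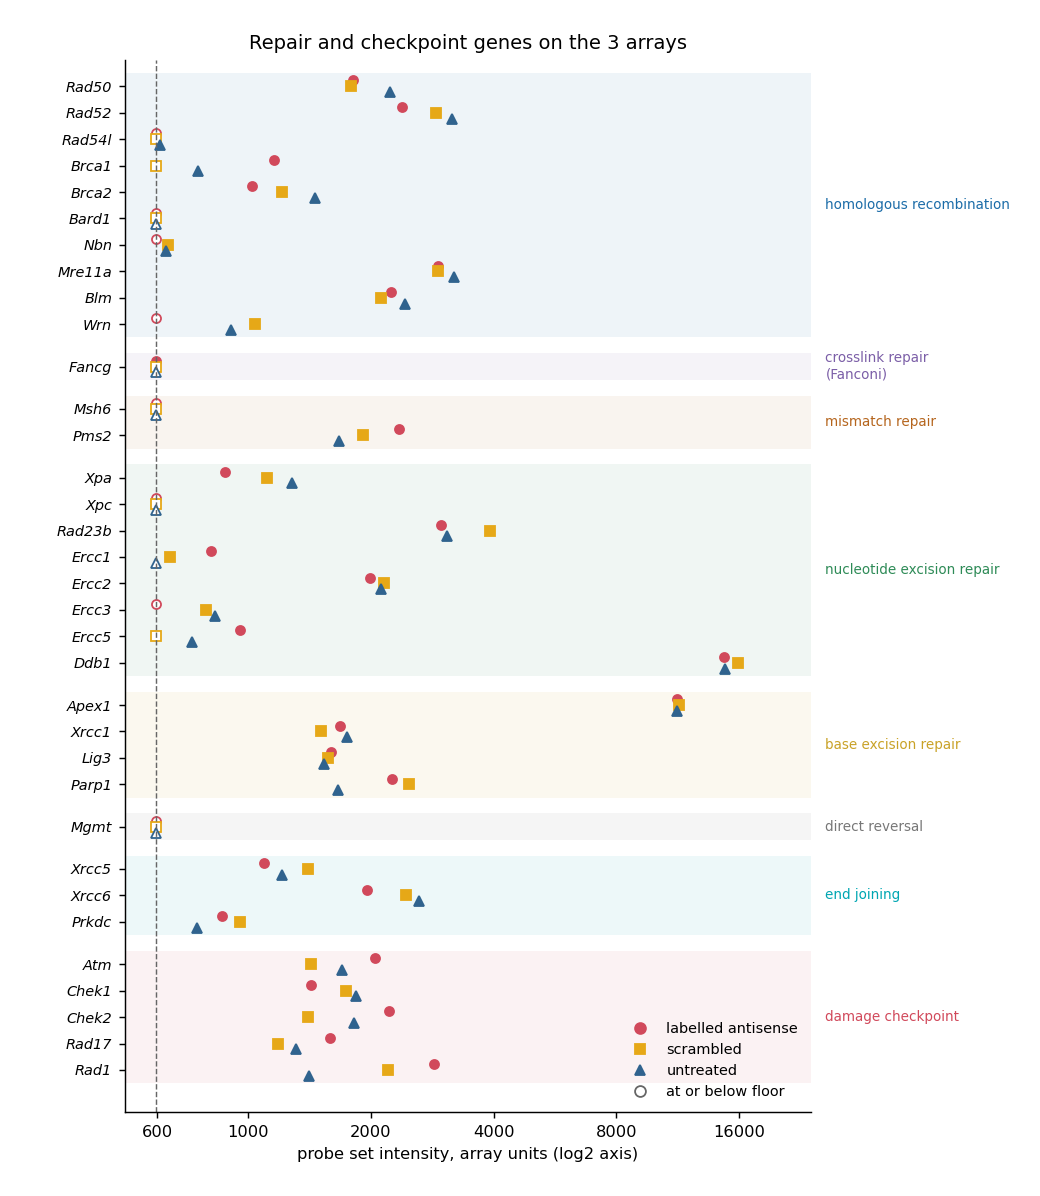
Probe set intensity of the 34 measured repair and checkpoint genes on the antisense-labelled array (circles), the scrambled array (squares) and the untreated array (triangles), on a log2 axis and grouped by pathway, with 1 array a group and no error bars. Open symbols are values at or below the floor of 595.9 (dashed line), where 4 genes lie on the 3 arrays, and for most of the others the 3 symbols lie within 2-fold of each other.

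Of the 5 measured genes of the damage checkpoint, 4 read above both controls on the antisense-labelled array and 1 below both, beside 37.4% and 31.6% of all genes, and all 5 exceeded the floor on each array. The median difference was 0.27 from untreated and 0.42 from scrambled, and it was above 0 in each of the other settings run, scalings included. Only the difference of Rad1 from untreated passed the control scatter.

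Rad1 encodes a subunit of the ring-shaped clamp, with Rad9 and Hus1, that is loaded at damaged DNA. It read 2868 on the antisense-labelled array, 2210.3 with the scrambled oligonucleotide and 1417 without treatment. The untreated array was the low one and both oligonucleotide arrays lay above it. The antisense-labelled array was 2.02-fold over untreated, a log2 difference of 1.02 against a control scatter of 0.77. It differed by 0.38 from scrambled, and scrambled differed from untreated by 0.64, both within that scatter. The difference from untreated was just under 2-fold, at 0.996, when arrays were scaled to the median or quantile-normalized.

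Rad17 encodes the loader that places this clamp on DNA. It read 1591 on the antisense-labelled array, 1186 with the scrambled oligonucleotide and 1317 without treatment, a difference of 0.27 against untreated and 0.42 against scrambled. Here the scrambled array was the lowest, unlike Rad1, and the differences lay within the control scatter of 1.19.

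Atm, the kinase activated by double-strand breaks, read 2054, 1428 and 1702 on the antisense-labelled, scrambled and untreated arrays. Chek2, which Atm phosphorylates, read 2219, 1402 and 1821 in the same order. In both genes the antisense-labelled array was the highest and the scrambled array the lowest. Atm differed by 0.27 (untreated) and 0.52 (scrambled), and Chek2 by 0.29 and 0.66, within the control scatter of 0.91 at the level of either gene. Chek2 carries an E2F word and a pair of CCAAT words in the window shown above.

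Chek1, the kinase that Atr activates when replication stalls, went the other way. It read 1426 on the antisense-labelled array, 1745 with the scrambled oligonucleotide and 1846 without treatment. The antisense-labelled array was the lowest, by -0.37 against untreated and -0.29 against scrambled. These lay within the control scatter of 0.91 as well, and with spike-in scaling Chek1 was higher on the antisense-labelled array than on both controls, like nearly all of the genes.

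**Figure D2:**
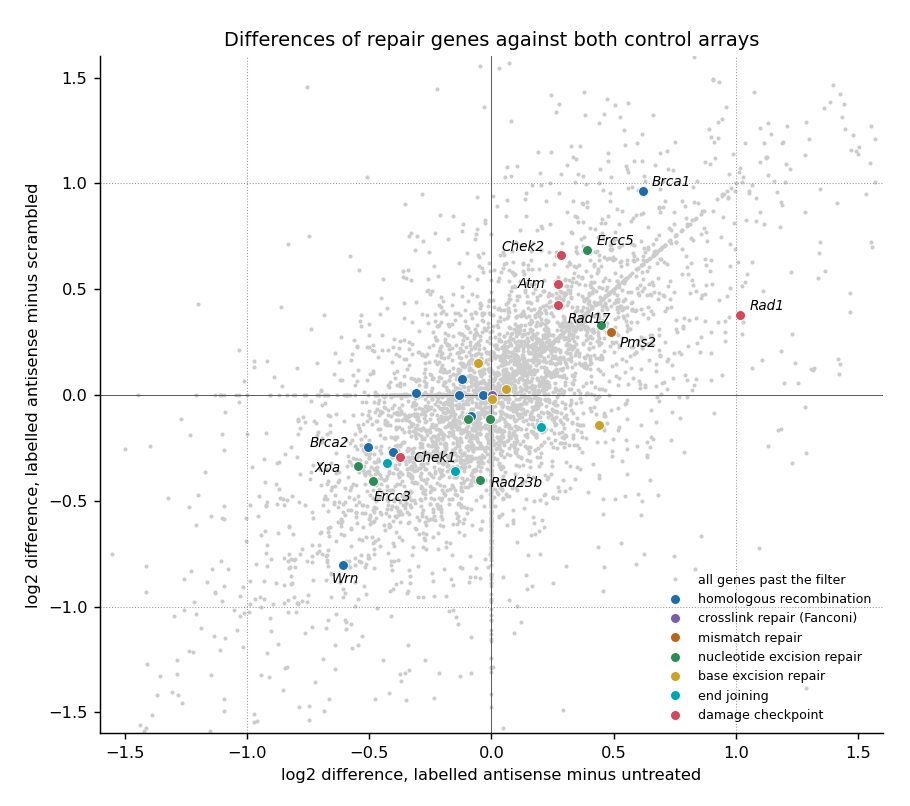
Log2 difference of the antisense-labelled array from the untreated array (x axis) and from the scrambled array (y axis) for the 30 repair and checkpoint genes above the floor on at least 1 array (coloured by pathway) over all 4643 genes past the same filter (grey), with dotted lines at 2-fold and axes that end before the most extreme grey points. The coloured points lie among the grey ones, with Rad1 just past the 2-fold line on the x axis and no gene past it on the y axis.

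In homologous recombination all 10 genes of the list were measured, and 9 were above the floor on at least 1 array. Of these 9, 1 exceeded both controls and 5 lay below both, beside 37.4% and 31.6% of all genes. Against untreated 8 of the 9 were lower, where 2151 of all 4643 genes were. Of the 8, Rad54l passed the filter through the untreated array alone, so its direction was fixed by the filter. Nbn and Wrn were held at the floor on the antisense-labelled array. The median was -0.13, which became 0.32 with spike-in scaling, below the common shift of all genes. This median was -0.31 with the floor at 1 robust standard deviation, -0.29 with it at 4, -0.31 where all 3 arrays had to be above the floor and -0.21 without probe sets of a shared or reduced kind. Against scrambled 5 were lower and 3 higher, where 2223 and 2261 of all genes were. The median there was -0.0013, and it became 0.34 with spike-in scaling, -0.18 with the floor at 1 robust standard deviation and about -0.05 with median scaling. Between the control arrays themselves 7 of the 9 were lower on the scrambled array, where 2128 of all genes were, with a median of -0.13 for the 9. Rad54l again had to be lower, for the same reason.

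Brca1, which directs broken ends to recombination and halts the cell cycle, read 1162 on the antisense-labelled array, 291 with the scrambled oligonucleotide and 756 without treatment. The scrambled value lay below the floor. The antisense-labelled array was 1.54-fold over untreated, within the control scatter of 1.21 on the log2 scale. It was at least 1.95-fold over scrambled, a lower bound that does not show whether that scatter was passed. With the floor at 1 robust standard deviation the log2 difference from scrambled was 1.96. Bard1, the partner that Brca1 needs as a ubiquitin ligase, was below the floor on the 3 arrays, from -82.8 to 289.

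Brca2, which loads the recombinase onto single-stranded DNA, lay on the other side. It read 1027 on the antisense-labelled array, 1217 with the scrambled oligonucleotide and 1459 without treatment, and the antisense-labelled array was the lowest. Its differences of -0.51 and -0.24 were within the control scatter of 1.23. Rad52, which anneals DNA strands, had the same order, at 2392, 2885 and 3163, with differences of -0.40 and -0.27 within a scatter of 0.65.

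The RecQ helicases Blm and Wrn unwind recombination intermediates and stalled forks, and people who lack them have the Bloom and Werner syndromes. Wrn read 424 on the antisense-labelled array, below the floor, against 1040.2 with the scrambled oligonucleotide and 908 without treatment. It was at least 1.75-fold lower than on the scrambled and at least 1.52-fold lower than on the untreated array. Both are lower bounds and do not show whether the control scatter of 1.22 on the log2 scale was passed. With the floor at 1 robust standard deviation these differences were -1.29 and -1.10. Blm read 2242, 2125 and 2434 and differed by -0.12 and 0.08.

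Mre11a, Rad50 and Nbn form the complex that first binds a double-strand break and calls Atm. Mre11a read 2920.4, 2923 and 3201 on the antisense-labelled, scrambled and untreated arrays, and Rad50 read 1807, 1795 and 2236. In both, the arrays with an oligonucleotide read alike and the untreated array was the highest, by 0.13 and 0.31 on the log2 scale over the antisense-labelled array. Nbn read 439, 639 and 632, below the floor on the antisense-labelled array alone, so that it was lower there by an amount these values do not give. Rad54l, a motor protein of strand exchange, passed the floor on the untreated array alone, at 611.

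**Figure D3:**
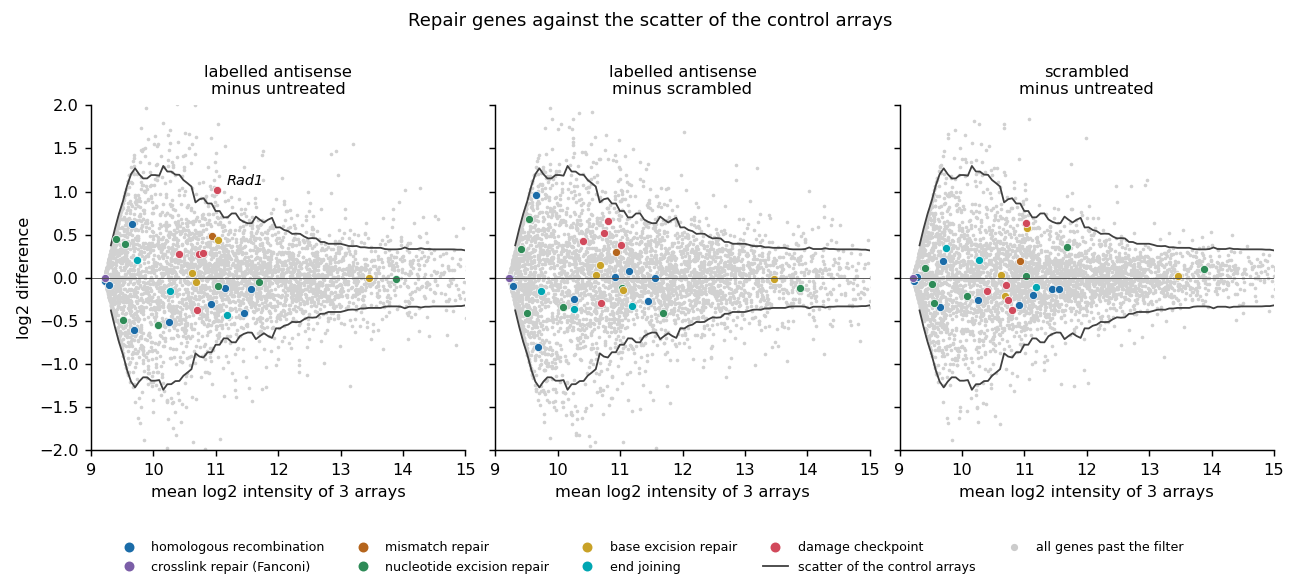
Log2 difference in each comparison (y axis, drawn from -2 to 2) against the mean log2 intensity of the 3 arrays (x axis) for the 30 repair and checkpoint genes (coloured by pathway) and all genes past the filter (grey). The black lines are the control scatter, the 95th percentile of the absolute scrambled minus untreated difference among the 300 probe sets nearest in level, and Rad1 against untreated is the only coloured point outside them in a comparison of the antisense-labelled array.

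Few genes of mismatch and crosslink repair could be read. Pms2, which nicks the strand that carries a mismatch, read 2348 on the antisense-labelled array, 1913 with the scrambled oligonucleotide and 1674 without treatment. The antisense-labelled array was the highest, by 0.49 and 0.30 within a control scatter of 0.82. Msh6, which recognises mismatches, was below the floor on the 3 arrays, from 125 to 407. Fancg, of the Fanconi core complex that answers crosslinks, read 596.3, 512 and 318, so it passed the floor by less than 1 unit of intensity on 1 array and counts as higher there with a difference of 0.0008. It lies just inside the filter and Rad54l comes next, while Msh6, at 407 on its highest array, is the nearest gene outside.

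In nucleotide excision repair 8 of 9 genes were measured and 7 were above the floor on at least 1 array. Of the 7, 5 lay below both controls and 2 above, beside 31.6% and 37.4% of all genes. The medians were -0.05 (untreated) and -0.12 (scrambled) and became 0.58 and 0.40 with spike-in scaling. With the mean of probe sets they were -0.11 and -0.0009, and where all 3 arrays had to be above the floor they were -0.07 and -0.23. No difference in this pathway passed the control scatter when values were held at the floor.

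Ddb1, an adaptor of the ubiquitin ligase that marks ultraviolet lesions, read 14677, 15895 and 14756 on the antisense-labelled, scrambled and untreated arrays. Its differences were -0.01 and -0.12, and a second probe set of the gene read 8225, 7604 and 7856, with differences of 0.07 and 0.11. Here the control scatter was 0.33 and 0.40, so that this gene had room for smaller differences than the dim ones, and the arrays read alike.

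Xpa, the scaffold that checks a lesion, read 882, 1114 and 1285, the lowest on the antisense-labelled array by -0.54 and -0.34. Ercc3, a helicase of the transcription factor TFIIH, read 580.0, 791 and 833, so that the antisense-labelled array lay below the floor. Its differences of -0.48 and -0.41 are thus lower bounds in size, beside a control scatter of 0.89. Those of Xpa lay within its control scatter of 1.18. Ercc2, the other TFIIH helicase, read 1989, 2151 and 2126 in 1 probe set, with differences of -0.10 and -0.11.

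A second Ercc2 probe set disagreed in 1 array. It read 1999, 1292 and 2188, so that the antisense-labelled array differed by -0.13 from untreated as before but by 0.63 from scrambled. Rad23b, which helps to recognise lesions with Xpc, also depended on the probe set, both of which are of a shared or reduced kind. Its brighter one read 2978, 3933 and 3075, high on the scrambled array, and its dimmer one read 1165, 1266 and 1709, high on the untreated array.

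Ercc5 and Ercc1, which encode subunits of the nucleases that cut out the lesion, were read near the floor. Ercc5 read 958 on the antisense-labelled array, 473 with the scrambled oligonucleotide and 730 without treatment. Its differences were 0.39 and 0.68, the second against a value below the floor. Ercc1 read 812, 646 and 516, with differences of 0.45 and 0.33, the first against a value below the floor. In both genes the antisense-labelled array was the highest. As held at the floor, the differences lay within the control scatter of 1.00 and 0.65. Both genes lie near the floor, where that scatter is itself reduced, so little can be read from it. Xpc, the lesion sensor, was below the floor on the 3 arrays, from 108 to 306.

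In base excision repair 4 of 5 genes were measured, all above the floor on each array. Apex1, the nuclease that cuts at a site without a base, read 11233, 11365 and 11227.5, with differences of 0.0007 against untreated and -0.02 against scrambled. Lig3, a ligase, read 1604, 1573 and 1538 in its brighter probe set, with differences of 0.06 and 0.03. Xrcc1, the scaffold that binds Lig3, read 1683, 1514 and 1746, with differences of -0.05 and 0.15. The dimmer Lig3 probe set passed the floor on the untreated array alone, at 1016.

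Parp1 senses strand breaks and builds poly(ADP-ribose). It read 2255 on the antisense-labelled array, 2487 with the scrambled oligonucleotide and 1662 without treatment. Both oligonucleotide arrays were above the untreated one, by 0.44 and 0.58, and differed from each other by -0.14. All lay within the control scatter of 0.77, and the gene's probe set is of the family kind, which can bind related transcripts. Over the 4 genes the medians were 0.03 and 0.01, and their sign turned against scrambled with median scaling, at -0.04, and with quantile normalization, at -0.01, and in both comparisons with the mean of probe sets, at -0.03 and -0.0013. Mgmt, which reverses alkylated guanine in a single step, was below the floor on the 3 arrays, from 141 to 268.

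End joining was read through 3 genes of the DNA-dependent protein kinase. Xrcc6, which encodes Ku70, read 1955, 2446 and 2627 on the antisense-labelled, scrambled and untreated arrays, with differences of -0.43 and -0.32. Xrcc5, which encodes Ku80, read 1096, 1407 and 1215, with differences of -0.15 and -0.36. In both Ku genes the antisense-labelled array was the lowest, within the control scatter of 0.68 and 1.23. Prkdc, the catalytic subunit, read 865, 960.0 and 752, and lay between the controls. The medians of the 3 were -0.15 and -0.32, which turned to 0.48 and 0.19 with spike-in scaling, below the common shift.

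**Figure D4:**
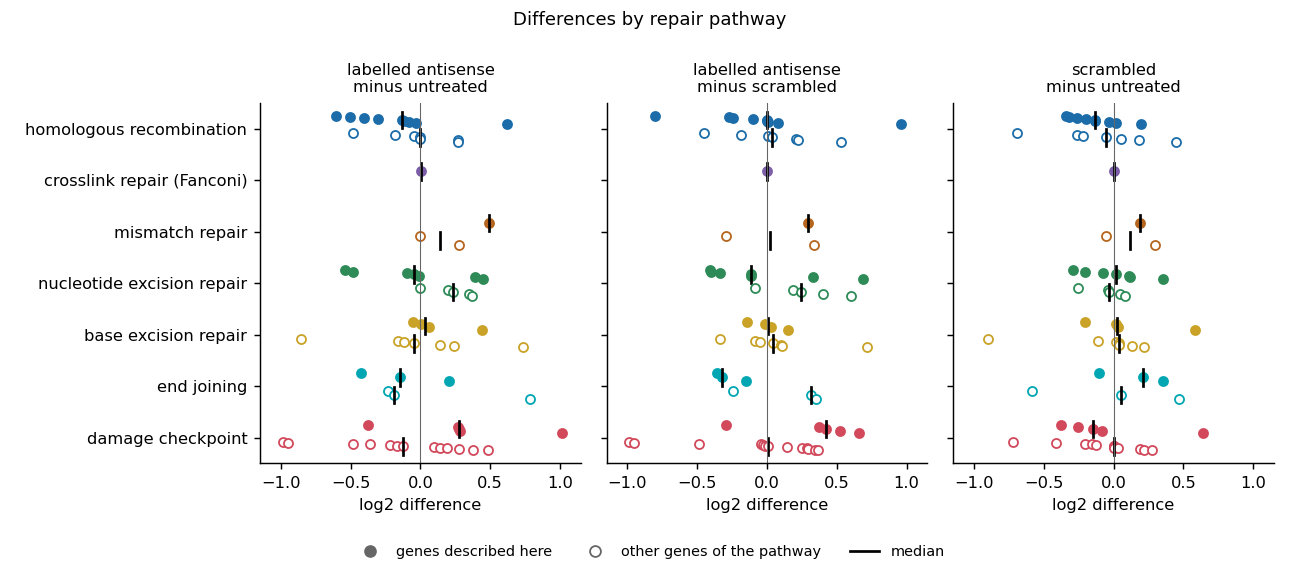
Log2 difference in each comparison (x axis) of repair and checkpoint genes above the floor on at least 1 array, by pathway (rows), with the genes described here as filled points, other genes of the same pathway as open points and medians as black bars. Filled and open points spread to both sides of 0 in most rows, and in the checkpoint row the medians of the filled points are 0.27 against untreated and 0.42 against scrambled while those of the open points are -0.13 and 0.0049.

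A further 101 repair genes were listed by function, and 53 of them were measured and 41 above the floor on at least 1 array. Of the 41, 17 exceeded both controls and 13 lay below them, beside 37.4% and 31.6% of all genes. The medians were 0.00 (untreated) and 0.04 (scrambled). The control scatter was passed by 3 against untreated and by 2 against scrambled, beside 8.7% and 10.7% of all genes. In the checkpoint list of 13 further genes, 5 lay above and 5 below both controls, beside 37.4% and 31.6% of all genes. Hus1, the third subunit of the clamp, read 1665, 1399 and 1556, with differences of 0.10 and 0.25.

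Among these 41 further genes 1 was at least 1.5-fold higher than both controls and 2 were lower, beside 5.17% and 3.98% of all genes. Polb, the gap-filling polymerase of base excision repair, read 1633 on the antisense-labelled array, 994 with the scrambled oligonucleotide and 983 without treatment, with differences of 0.73 and 0.72 within a control scatter of 1.23. The lower ones were H2ax, the histone variant that is phosphorylated around a break, at 3346 against 6478.5 and 6449.5 on the scrambled and untreated arrays, and Cdc25c, the phosphatase that Chek1 and Chek2 restrain, at 1035 against 2050.4 and 2049. With the arrays at equal trimmed means, the differences passed the control scatter of 0.55 (H2ax) and 0.87 (Cdc25c). The spike-ins of the antisense-labelled array read -0.63 from untreated and -0.51 from scrambled on the log2 scale. Scaling to them makes the differences of H2ax and Cdc25c smaller, and whether they then pass was not counted. The probe set of Cdc25c is of a shared or reduced kind. No gene of the main list of repair and checkpoint genes, described above, passed the control scatter against both controls when values were held at the floor.

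Genes that damage or the cell cycle is known to move were read beside them. Of 10 targets of p53 above the floor, 6 exceeded both controls and 3 lay below them (Btg2, Plk2 and Sesn1), beside 37.4% and 31.6% of all genes. The medians of the 10 were 0.35 and 0.31 (0.98 and 0.83 with spike-in scaling). Of this list 13 genes were measured, but Gadd45a, Fas and Perp gave no reading that exceeded the floor. With them included, the medians over the 13 were 0.07 against untreated and 0.00 against scrambled. Cdkn1a, the cell-cycle inhibitor gene, differed by 1.67 and 1.34, past the control scatter of 1.04. Ccng1 differed by 1.57 and 1.01, the second within its scatter of 1.23. The scatter was passed by 2 of the 10 against untreated and by 1 against scrambled, beside 8.7% and 10.7% of all genes. Of 24 genes of S phase and mitosis, 15 lay below both controls and 5 above, beside 31.6% and 37.4% of all genes. The control scatter was passed by 5 of the 24 against untreated and by 7 against scrambled, beside 8.7% and 10.7% of all genes. Among the 7, Cdc45 was higher on the antisense-labelled array. The medians of these 24 were -0.34 and -0.14 and turned to 0.30 and 0.38 with spike-in scaling. Cdc20 and Plk1, which serve mitosis, were at least 1.5-fold lower than both, by -0.70 and -0.74 and by -0.78 and -0.75. With the arrays at equal trimmed means, these differences passed the control scatter of 0.35 (Cdc20) and 0.40 (Plk1). The part of these lists in the values of the repair genes was not tested.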

How the data were processed

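Per the labels, total RNA of 1 cell line was measured on 3 arrays, 1 per group. The authors deposited intensity values per probe set, linear and already scaled to a trimmed mean of 1500 on each array, and 24.8% to 27.9% of them are at or below 0. The software that made them was not stated in the labels. Here the arrays were set to 1 trimmed mean, leaving out 2% at either end, of the 12588 non-control probe sets, using Python 3.11.15 with numpy and pandas. The floor was 2 robust standard deviations of the values below 0. A gene was kept when its intensity on any array exceeded the floor, and its brightest probe set on average stood for it.

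Symbols came from the platform annotation, with 1 symbol for 10298 probe sets and several for 363, and were matched to RefSeq gene identifiers. The list of 41 genes, the other lists and the settings were chosen with earlier results of these data known. All 41 genes are named, and those at least 1.5-fold apart from both controls, and the extremes of each pathway, are given in full. Of other lists, genes at least 1.5-fold apart from both controls in 1 direction and above the floor on the 3 arrays are named, at most 4 per list, and other names in the text were chosen after their values were seen. Some probe sets of this first chip version are known to be faulty and were not identified. The counting was tested on simulated data, with larger changes in brighter genes than most of those described here. That test thus does not cover their range. Differences are log2 values, and folds against the floor are lower bounds. The number of arrays limits the precision.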

Additional observations from a re-analysis of the deposited data

How the results depend on the processing

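No paired analysis was possible because each group has a single array. Scaling, floor, filter, choice of probe set and fold were varied. The median difference of the repair genes against untreated, -0.04, and against scrambled, -0.01, became 0.58 and 0.45 with spike-in scaling, and moved by less than 0.1 in the other settings. The number of genes 2-fold apart from untreated, 1, was 6 with spike-in scaling, 2 with the floor at 1 robust standard deviation, 0 with median scaling, 0 with quantile normalization, and 3 when counted at 1.5-fold. Against scrambled, 0 became 4 with spike-in scaling, 3 with the lower floor and 4 at 1.5-fold. Between the scrambled and untreated arrays, 0 became 1 with the lower floor and 1 at 1.5-fold. The number 2-fold apart from both controls in 1 direction, 0, became 2 with spike-in scaling, 1 with the lower floor (Wrn) and 2 at 1.5-fold (Brca1 and Wrn). The number higher than both controls by any amount, 10, was 28 with spike-in scaling, 6 with the floor at 4 robust standard deviations and 6 where all 3 arrays had to be above the floor, and the number lower, 13, was 1 with spike-in scaling. Fewer genes are counted with the floor at 4 robust standard deviations, 21, and where all 3 arrays had to be above the floor, 22. The spike-in scaling raises the antisense-labelled array because its 6 spike-in probe sets read lower there. Their mean log2 value was -0.63 from untreated and -0.51 from scrambled. The cause of the other changes was not tested. Most of the genes lie at intensities where the control arrays themselves scatter by 0.65 or more on the log2 scale, so smaller differences could not be told from that scatter.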

Other observations

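Some further repair genes, chosen here after their values were seen, read differently on the untreated array than on both oligonucleotide arrays. Mpg, a glycosylase that removes alkylated bases, read 880.1 on the antisense-labelled array, 855 with the scrambled oligonucleotide and 1592 without treatment, with the scrambled array -0.90 from untreated on the log2 scale. Rpa1, the large subunit of the protein that coats single-stranded DNA, read 7122, 6167 and 9939 on the same arrays. The antisense-labelled array differed from untreated by -0.48 and the scrambled array by -0.69, beside a control scatter of 0.40. That scatter is drawn from the scrambled minus untreated differences themselves, where 181 of the 4643 genes lay past it. Paxx, a factor of end joining, read 1669, 1342 and 971, the lowest on the untreated array, and the differences of Mpg and Paxx lay within the control scatter. Like Rad1 and Parp1, these values do not separate the antisense-labelled array from the scrambled one by more than the control scatter.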
